A study of Homo sapiens with 2 samples.

Results

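The TTC genes (tetratricopeptide repeat domain) and the IFIT genes (interferon-induced protein with tetratricopeptide repeats) encode proteins built from the tetratricopeptide repeat, or TPR. They were taken by name as every row of the deposited chaperome table whose protein name begins with TTC or IFIT. The rule uses no measured value, but it and the role lists below were chosen with earlier results of these data known. This gave 39 of the 332 genes of the table, 34 TTC and 5 IFIT genes. Total RNA was sequenced in 2 libraries from HEK293 Flp-In T-Rex cells. This human line of embryonic kidney origin has a landing site for Flp recombinase, and transgenes put there answer to tetracycline. The labels put both in 1 group, as replicates 1 and 2. Their read counts are headed NHS_rep1 and NHS_rep2, and what NHS stands for was not settled here. No control or treated group was available, so levels are described and no condition is compared. Derivatives that express FLAG-tagged GFP or HSPA1A, induced for 16 hours, appear in the design text, and the sample labels do not say whether one of them was sequenced. The labels call the cells HEK293 Flp-In T-Rex, while their extraction text calls them HEK293T. They give the replicates no separate cultures, so the spread between them may be technical. The table holds chaperome genes only, so the identity of the line was not tested against markers.

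A TPR is a short pair of helices, and several stacked repeats form a curved scaffold that holds partner proteins. In HSP70 and HSP90 co-chaperones, such a scaffold grips the tail of the chaperone. In the cilium, TPR proteins are building blocks of intraflagellar transport, the traffic along the axoneme, and of the BBSome, a complex that moves membrane proteins in and out of the cilium. IFIT1, IFIT2, IFIT3 and IFIT5 act against foreign RNA and are switched on by interferon, and IFIT1B was placed with them by its name. The 39 genes were sorted by these known roles into 6 lists. These were widely expressed genes (15), genes of other, mostly tissue-restricted expression (7), genes of intraflagellar transport and the BBSome (5), genes of the motile cilium, sperm or testis (5), genes of the IFIT family (5) and co-chaperones of HSP70 and HSP90 (2).

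Replicate 1 had a library total of 6828264 reads and replicate 2 one of 4445676. The TTC and IFIT genes held 6800 and 4497 of these reads, or 3.54% (95% Wilson interval 3.45 to 3.62) and 3.57% (3.47 to 3.67) of the reads of the table. The authors' RPKM divides the reads by the genomic span of the gene, introns included. For the TTC and IFIT genes the span was a median of 7.60 times the length of the exons, against 6.37 times over all 332 genes. Levels are therefore given as RPKM per kilobase of span, which is the deposited unit, as RPKM per kilobase of exon, which assumes that the reads are exonic, or on both scales, with the scale named each time. Intervals and limits cover counting error only. In bulk RNA, fewer cells that express a gene and less RNA per cell cannot be told apart.

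Most of the genes had fewer reads than the typical gene of the table, with a median of 82 reads in replicate 1 and 41 in replicate 2, against 198 and 129 over all genes. A gene was counted as detected with at least 10 reads in each library and as near zero with at most 3 reads in each. By this rule 27 of the 39 genes were detected (69.2%), against 79.2% of all 332 genes. Another 6 were near zero (15.4%), against 15.1%, and 6 lay between (15.4%), against 5.72%. At least 100 reads in each library were reached by 11 genes (28.2%), against 54.8% of the table. A mean of 1 RPKM per kilobase of span was reached by 10 genes (25.6%), against 46.4% of the table, and 1 RPKM per kilobase of exon by 23 genes (59.0%), against 74.4%. The median level was 0.158 RPKM per kilobase of span, against 0.784 over all genes, and 1.76 RPKM per kilobase of exon, against 5.17. A further 39 TPR genes of the table that lack these names, such as STIP1, STUB1 and FKBP4, had medians of 1.51 and 12.1 RPKM on the same scales, and 24 of them reached 1 RPKM per kilobase of span. One of those rows, UTX, carries the identifier of another gene. These differences are descriptions and were not tested. No TTC or IFIT gene was without reads in both libraries, against 12 of all 332 genes (3.61%). In 1 library only, 3 of the 39 genes (7.69%) had 0 reads, against 6.02% of the table.

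**Figure D1:**
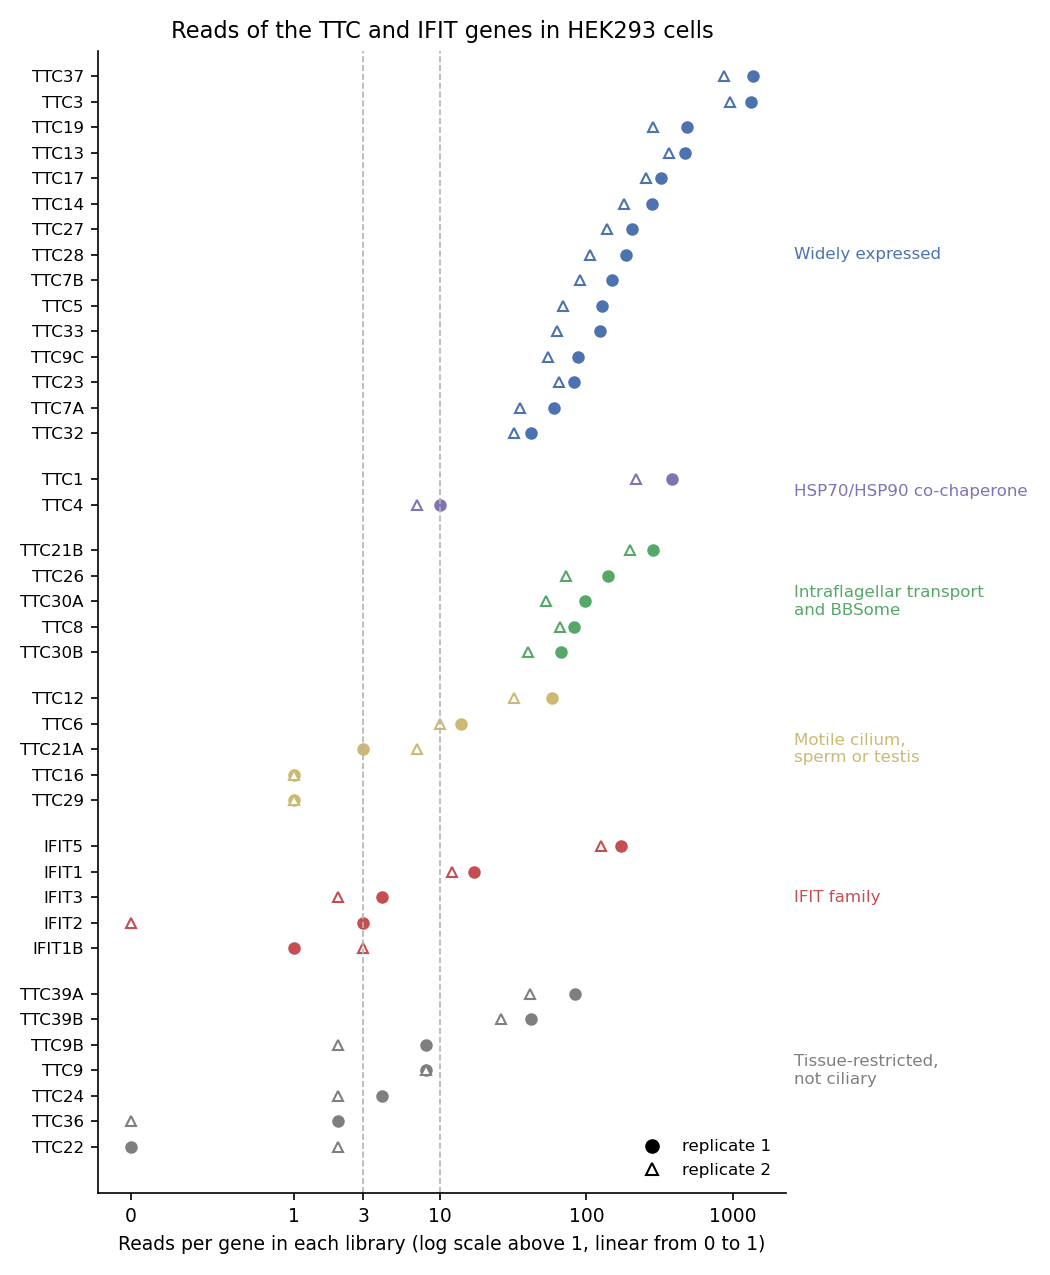
Reads of each TTC and IFIT gene in replicate 1 (filled circles) and replicate 2 (open triangles), grouped by known role, on an axis that is logarithmic above 1 read. Dashed lines mark 3 and 10 reads; all 15 widely expressed and all 5 intraflagellar transport and BBSome genes lie right of the second line, while IFIT5 alone of the IFIT family lies above 100 reads.

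**Figure D2:**
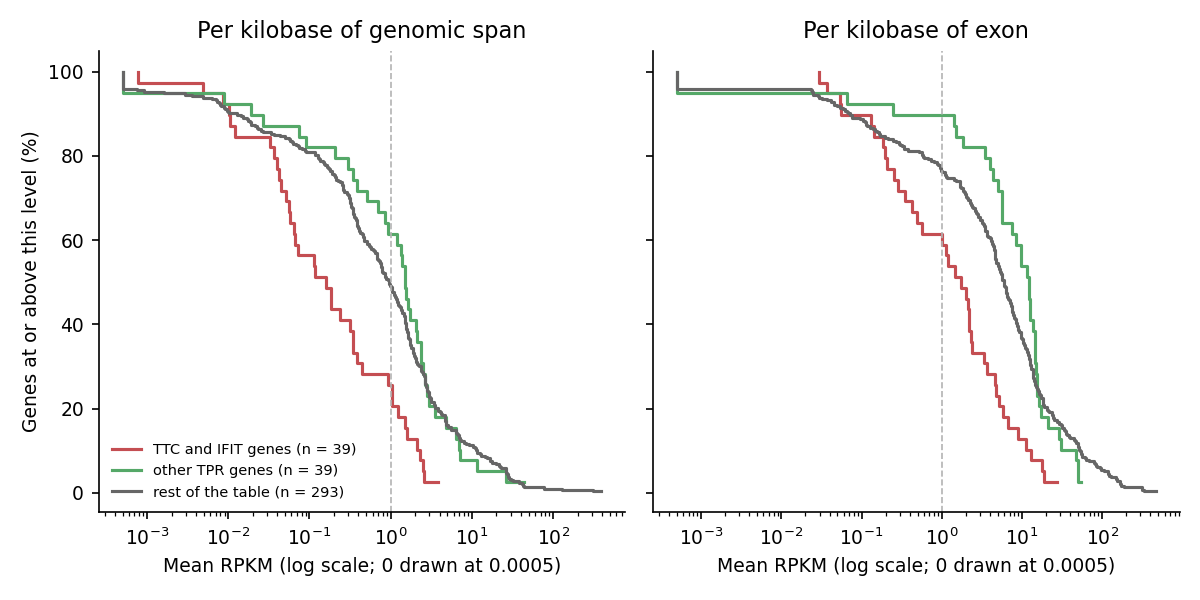
Share of genes (vertical, in percent) at or above a given mean RPKM (horizontal, log scale) for the TTC and IFIT genes, other TPR genes of the table and the rest of the table, per kilobase of genomic span on the left and of exon on the right. At the dashed line of 1 RPKM, 25.6% of the TTC and IFIT genes remain on the left and 59.0% on the right.

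In the widely expressed list 15 of 15 genes had 10 reads or more in each library, against 79.2% of all genes. Nothing is read from this count, since the list was named for wide expression and drawn up with earlier results of these data known. Of these genes 7 reached 1 RPKM per kilobase of span, or 46.7%, against 46.4% of the table, and 14 reached 1 RPKM per kilobase of exon, or 93.3%, against 74.4%. The median of the list was 0.386 RPKM per kilobase of span and 4.65 per kilobase of exon, both under the 0.784 and 5.17 of all genes. Reads were concentrated in a pair of genes. TTC37 is the scaffold of the Ski complex, which feeds RNA to the cytoplasmic exosome for decay (ENSG00000198677, chromosome 5, 95461755 to 95554977, minus strand, GRCh38). It had 1366 reads in replicate 1 and 867 in replicate 2, or 2.15 and 2.09 RPKM per kilobase of span and 19.1 and 18.7 per kilobase of exon. TTC3, a ubiquitin ligase (ENSG00000182670, chromosome 21, 37073226 to 37203112, plus strand), had 1325 and 959 reads, or 1.49 and 1.66 RPKM per kilobase of span and 12.2 and 13.6 per kilobase of exon. Together they held 39.6% of the TTC and IFIT reads in replicate 1 (95% Wilson interval 38.4 to 40.7) and 40.6% in replicate 2 (39.2 to 42.0).

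On the deposited scale TTC14, whose span is 15.7 kb, led this list. It had 279 and 179 reads, with 2.61 and 2.57 RPKM per kilobase of span and 5.25 and 5.17 per kilobase of exon. TTC19, a mitochondrial protein needed for respiratory complex III, had 488 and 286 reads, with 1.58 and 1.42 RPKM per kilobase of span and 12.0 and 10.8 per kilobase of exon. Per kilobase of span both replicates of TTC14 were above both of TTC37, of TTC3 and of TTC19. Lower down, TTC32 had 42 and 32 reads, or 1.15 and 1.34 RPKM per kilobase of span and 3.10 and 3.62 per kilobase of exon. TTC13 had 470 and 366 reads, or 0.948 and 1.13 RPKM per kilobase of span and 16.3 and 19.5 per kilobase of exon. TTC9C had 87 and 55 reads, or 1.04 and 1.01 RPKM per kilobase of span and 4.80 and 4.66 per kilobase of exon. Per kilobase of span TTC13 and TTC9C overlapped, while both replicates of TTC32 were above both of either gene.

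The other 8 widely expressed genes were under 1 RPKM per kilobase of span, yet 7 of them reached 1 RPKM per kilobase of exon. TTC27 had the most reads per kilobase of exon among them, at 8.86 ± 0.316 RPKM (SD, n = 2) against 0.158 ± 0.00563 per kilobase of span. TTC17, which acts in actin assembly and the making of cilia, stood at 4.65 ± 0.635 RPKM per kilobase of exon and 0.386 ± 0.0527 per kilobase of span. TTC28 spans 702 kb and had 186 and 106 reads, so its level was 0.0364 ± 0.00342 RPKM per kilobase of span and 2.02 ± 0.190 per kilobase of exon. TTC5, a cofactor of the acetyltransferase p300 that also binds nascent tubulin, was at 1.76 ± 0.224 RPKM per kilobase of exon. TTC7A and TTC7B, alternative subunits of the complex that brings the lipid kinase PI4KA to the plasma membrane, were at 1.20 ± 0.0930 and 0.998 ± 0.0498 RPKM per kilobase of exon. TTC33 and TTC23 were at 2.36 ± 0.398 and 2.17 ± 0.300 RPKM per kilobase of exon.

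**Figure D3:**
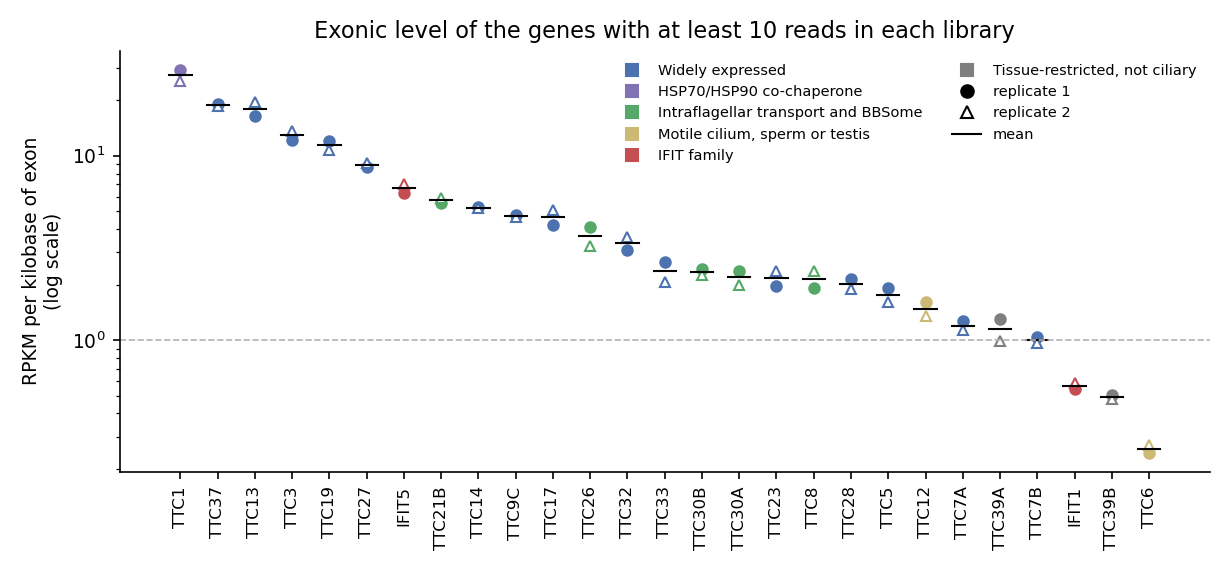
RPKM per kilobase of exon (vertical, log scale) in replicate 1 (filled circles) and replicate 2 (open triangles) with the mean (bar) for the 27 genes with at least 10 reads in each library, coloured by known role. TTC1 is highest at 27.2 RPKM, and TTC7B, IFIT1, TTC39B and TTC6 have means below the dashed line of 1 RPKM.

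The 2 genes of the co-chaperone list, which need not be complete, stood far apart. TTC1, which binds HSP70 and HSP90 (ENSG00000113312, chromosome 5, 160009113 to 160065543, plus strand), had 386 and 218 reads. This was 1.00 and 0.869 RPKM per kilobase of span in replicates 1 and 2, and 29.2 and 25.3 per kilobase of exon, so that TTC1 was the highest of the 39 genes on the exonic scale and rank 51 of 332 in the table. Both of its replicates were above both replicates of TTC37, the next gene. TTC4, an HSP90 co-chaperone related to yeast Cns1 (ENSG00000243725, chromosome 1, 54715861 to 54742657, plus strand), had 10 and 7 reads, or 0.415 and 0.446 RPKM per kilobase of exon. In GENCODE 29, 90.4% of the 1161 coding bases of TTC4 also lie in exons of MROH7-TTC4, an annotated read-through gene on the same strand. Among the TTC and IFIT genes TTC4 had the largest such share of exon bases, at 52.4%, and TTC36 followed at 15.6%. The sources used here do not say how reads in both genes were counted, and the part of this overlap in the low count was not tested.

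Of the genes of intraflagellar transport and the BBSome, 5 of 5 were detected, against 79.2% of all genes. Their median was 0.448 RPKM per kilobase of span, against 0.784 over all genes, and 2.34 RPKM per kilobase of exon, against 5.17. TTC21B encodes IFT139, a subunit of the retrograde complex, and had 286 and 198 reads, or 5.56 and 5.91 RPKM per kilobase of exon. TTC26, or IFT56, had 140 and 72 reads and 4.10 and 3.24 RPKM per kilobase of exon. TTC8, the BBSome subunit BBS8, had 82 and 66 reads and 1.92 and 2.37 RPKM per kilobase of exon. All 5 genes reached 1 RPKM per kilobase of exon, against 74.4% of the table, and TTC30A and TTC30B also did so per kilobase of span, against 46.4%.

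TTC30A and TTC30B both encode IFT70, a subunit of the anterograde complex, and lie 60.2 kb apart on the minus strand of chromosome 2, each as 1 exon. Over 1995 coding bases they differ at 80 positions, an identity of 96.0%, and the longest identical run is 272 bases. Such copies bear on how reads are assigned, so the first 120 coding bases of each are shown 5′ to 3′, from GENCODE 29 transcripts on GRCh38. Capitals mark the 8 positions at which they differ.
TTC30A (chr2:177618582-177618701, minus strand): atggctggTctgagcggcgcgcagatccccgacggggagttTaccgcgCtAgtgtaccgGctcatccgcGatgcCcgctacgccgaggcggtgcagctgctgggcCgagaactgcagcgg
TTC30B (chr2:177552644-177552763, minus strand): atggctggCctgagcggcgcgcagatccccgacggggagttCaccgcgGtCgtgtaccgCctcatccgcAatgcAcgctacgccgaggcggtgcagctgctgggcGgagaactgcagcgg

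TTC30A had 97 and 53 reads, with 2.47 and 2.08 RPKM per kilobase of span. TTC30B had 67 and 40 reads, with 2.58 and 2.37 RPKM per kilobase of span. The replicates of the pair overlapped, and the ratio of TTC30A to TTC30B was 0.932 ± 0.0584 (SD, n = 2) per kilobase of exon. From the reads of both libraries the ratio was 0.942 (95% exact binomial interval 0.731 to 1.22). Of the 50-base windows of their transcripts, 10.6% in TTC30A and 15.8% in TTC30B occur in the other gene. A read that lies within such a window fits both genes, so the split between the copies is uncertain. The size of this uncertainty depends on read length and on how such reads were assigned, and was not tested.

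Of the genes of the motile cilium, sperm or testis, 2 of 5 were detected, against 79.2% of all genes. A level of 1 RPKM was reached by 0 of 5 per kilobase of span, against 46.4% of the table, and by 1 of 5 per kilobase of exon, against 74.4%. These counts are not read as a result, since the list was named for restricted expression and drawn up with earlier results of these data known. The median of the list was 0.0120 RPKM per kilobase of span and 0.131 per kilobase of exon. TTC12, needed to assemble the dynein arms of motile cilia, was the highest with 58 and 32 reads, or 1.60 and 1.36 RPKM per kilobase of exon. TTC6 had 14 and 10 reads, or 0.245 and 0.269 RPKM per kilobase of exon. TTC21A, the sperm-flagellum relative of TTC21B, had 3 and 7 reads, or 0.0572 and 0.205 RPKM per kilobase of exon. TTC16 had 1 read in each library, and TTC29, a protein of the sperm flagellum, also had 1 read in each. TTC21B exceeded TTC21A 97.1 times in replicate 1 and 28.8 times in replicate 2 per kilobase of exon. From the reads of both libraries this ratio was 49.3 (95% exact binomial interval 26.6 to 103).

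The 5 IFIT genes lie in a row on the plus strand of chromosome 10, within 138 kb. Of these, 2 of 5 were detected, against 79.2% of all genes, and IFIT5 alone reached 1 RPKM, on either scale. IFIT5 (ENSG00000152778, 89414568 to 89421605, GRCh38), which binds uncapped RNA ends, had 171 and 126 reads. At 3.56 and 4.03 RPKM per kilobase of span it was the highest of all 39 genes and rank 60 of 332 in the table. Per kilobase of exon it stood at 6.24 and 7.06 RPKM, the seventh of the 39. IFIT1, which binds capped viral RNA, had 17 and 12 reads, or 0.540 and 0.585 RPKM per kilobase of exon. IFIT3, a partner of IFIT1 and IFIT2, had 4 and 2 reads, or 0.222 and 0.170 RPKM per kilobase of exon. IFIT2 had 3 reads in replicate 1 and 0 in replicate 2, where a count of 0 allows up to 3 reads, or 0.165 RPKM per kilobase of exon. IFIT1B, a relative of IFIT1, had 1 and 3 reads, or 0.0743 and 0.342 RPKM per kilobase of exon.

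Every replicate of IFIT5 was above every replicate of the other 4 IFIT genes on both scales. Per kilobase of exon IFIT1 was at 0.0847 ± 0.00257 of IFIT5 (SD, n = 2), with a 95% exact binomial interval of 0.0559 to 0.125 from the reads of both libraries. IFIT3 was at 0.0299 ± 0.00809 of IFIT5, with an interval of 0.0112 to 0.0677. For IFIT2 the reads of both libraries gave 0.00989, with an interval of 0.00203 to 0.0292. Per kilobase of span these ratios are lower, since the deposited span of IFIT3 is 50.2 kb, against 13.1 kb in GENCODE 29, and that of IFIT2 is 25.6 kb.

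Interferon acts on its target genes through the interferon-stimulated response element, or ISRE, which the factor ISGF3 binds. The promoters are shown because IFIT1, IFIT3 and IFIT5 of this cluster, which hold matches to the ISRE core, had different levels. RefSeq promoters of GRCh38.p14 ran from 250 bases before to 50 after the annotated start. Promoters were matched by symbol for IFIT1, IFIT1B, IFIT3 and IFIT5, with 2 starts for IFIT3, and none was found for IFIT2. They are written 5′ to 3′ on the plus strand, and capitals mark each match to the ISRE core, searched on both strands as 2 copies of TTTC with any 2 bases between them (the reverse strand reads GAAA).
IFIT5 (chr10:89414318-89414617): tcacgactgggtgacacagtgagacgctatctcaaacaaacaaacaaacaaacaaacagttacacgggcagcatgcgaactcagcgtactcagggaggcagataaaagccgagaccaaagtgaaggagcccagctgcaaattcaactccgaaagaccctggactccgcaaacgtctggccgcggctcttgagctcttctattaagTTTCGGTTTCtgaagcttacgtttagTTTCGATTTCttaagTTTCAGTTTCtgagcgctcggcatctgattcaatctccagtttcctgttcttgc
IFIT1 (chr10:89392373-89392672): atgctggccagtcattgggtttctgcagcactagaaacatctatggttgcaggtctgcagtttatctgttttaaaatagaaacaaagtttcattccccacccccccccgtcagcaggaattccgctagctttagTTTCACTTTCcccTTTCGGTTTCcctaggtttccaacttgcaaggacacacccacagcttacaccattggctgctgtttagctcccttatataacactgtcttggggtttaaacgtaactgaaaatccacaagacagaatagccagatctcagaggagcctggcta
IFIT3, start 1 (chr10:89327747-89328046): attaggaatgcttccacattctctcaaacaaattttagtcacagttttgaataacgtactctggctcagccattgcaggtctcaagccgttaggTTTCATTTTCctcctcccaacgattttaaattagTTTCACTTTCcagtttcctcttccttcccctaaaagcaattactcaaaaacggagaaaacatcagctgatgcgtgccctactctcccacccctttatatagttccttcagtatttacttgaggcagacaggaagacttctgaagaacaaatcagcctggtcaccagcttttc
IFIT3, start 2 (chr10:89332279-89332578): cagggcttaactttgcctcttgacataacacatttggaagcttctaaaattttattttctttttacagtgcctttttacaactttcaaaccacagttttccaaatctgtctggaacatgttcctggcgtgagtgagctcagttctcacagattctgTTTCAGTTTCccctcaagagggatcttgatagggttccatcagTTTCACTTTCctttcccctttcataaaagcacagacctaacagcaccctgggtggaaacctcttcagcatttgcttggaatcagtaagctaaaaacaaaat
IFIT1B (chr10:89377806-89378105): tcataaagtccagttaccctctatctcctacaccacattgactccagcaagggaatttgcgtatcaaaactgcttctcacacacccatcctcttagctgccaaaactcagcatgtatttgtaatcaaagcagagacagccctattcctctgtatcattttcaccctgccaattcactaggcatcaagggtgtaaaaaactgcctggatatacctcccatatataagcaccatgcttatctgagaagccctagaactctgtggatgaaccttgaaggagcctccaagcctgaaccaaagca

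IFIT5 has 3 matches, IFIT1 has 2 and each start of IFIT3 has 2, with no overlap between matches, while these letters are not in the IFIT1B window. In IFIT5 the matches begin 45, 19 and 4 bases before the start, in IFIT1 116 and 103 bases before it. Of all 35116 promoters in the RefSeq table, 3.57% hold at least 1 match and 0.259% hold 2 or more. Among the 37 promoters found for 28 TTC genes, 3 held a match, those of TTC6, TTC8 and TTC28, with 1 each. IFIT1 and IFIT3 each hold matches, as IFIT5 does, and had under 20 reads in each library. A match is a description of the letters and not evidence of binding.

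**Figure D4:**
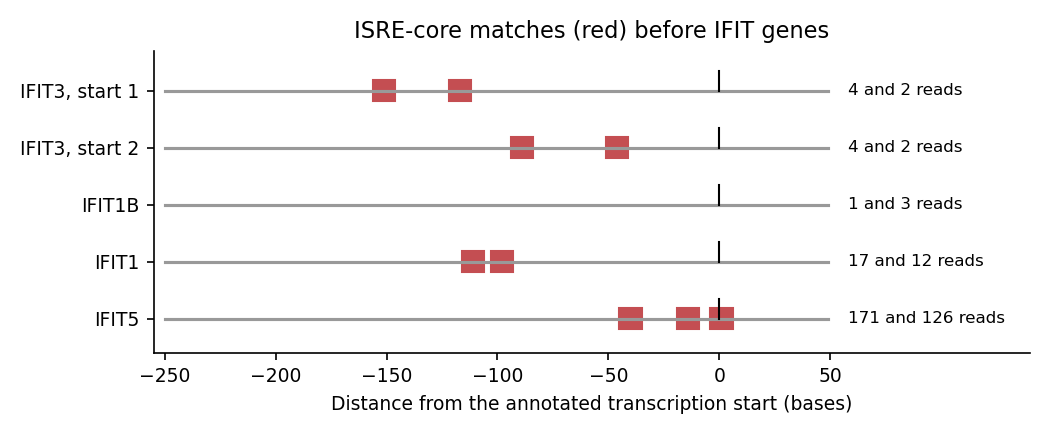
Matches to the ISRE core (red boxes) by distance in bases from the annotated transcription start (vertical tick) in RefSeq promoters of 4 IFIT genes, with the reads of each gene in replicates 1 and 2 at the right. IFIT5, with 171 and 126 reads, has 3 matches near its start, and IFIT1B, with 1 and 3 reads, has none in this window.

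Among the remaining, mostly tissue-restricted genes, 2 of 7 were detected, against 79.2% of all genes, and 0 reached 1 RPKM per kilobase of span, against 46.4%. TTC39A alone, or 1 of 7, reached 1 RPKM per kilobase of exon, against 74.4%. Nothing is read from these counts, since the list was named for restricted expression and drawn up with earlier results of these data known. The median of the list was 0.0444 RPKM per kilobase of span and 0.285 per kilobase of exon. TTC39A had 83 and 41 reads, or 1.14 ± 0.222 RPKM per kilobase of exon (SD, n = 2), and TTC39B, known for its effect on cholesterol handling in the liver, had 42 and 26 reads, or 0.491 ± 0.0175 RPKM per kilobase of exon. TTC9 had 8 reads in each library, and TTC9B, known mainly from brain, had 8 and 2. TTC24 had 4 and 2 reads. TTC36, known mainly from liver and kidney, had 2 reads in replicate 1 and 0 in replicate 2, and TTC22 had 0 and 2. A count of 0 in these libraries allows up to 3 reads, or 0.669 RPKM per kilobase of exon for TTC36 in replicate 2 and 0.0726 RPKM per kilobase of exon for TTC22 in replicate 1. TTC9C, of the widely expressed list, exceeded its relative TTC9 by 17.4 ± 5.55 times per kilobase of exon.

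The order of the genes turned with the length scale. Per kilobase of span the first 5 were IFIT5, TTC14, TTC30B, TTC30A and TTC37, and per kilobase of exon they were TTC1, TTC37, TTC13, TTC3 and TTC19. The 10 highest genes of each scale had 7 in common, and Spearman's rho between the scales was 0.835 across the 39 genes, which share both libraries and are not independent replicates. TTC7A stood below TTC7B per kilobase of span, with a ratio of 0.716 ± 0.0199 (SD, n = 2), and above it per kilobase of exon, at 1.20 ± 0.0333, where the interval from the reads, 0.941 to 1.54, includes equal levels. TTC9B had a higher level than TTC9 per kilobase of span, while per kilobase of exon the replicates went in opposite directions. Of the 38 pairs of neighbours in the order, 12 had replicates that did not overlap per kilobase of span and 14 per kilobase of exon. IFIT5 was set apart from TTC14 on the deposited scale, while TTC14, TTC30B, TTC30A and TTC37 formed a run in which no neighbours were apart.

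**Figure D5:**
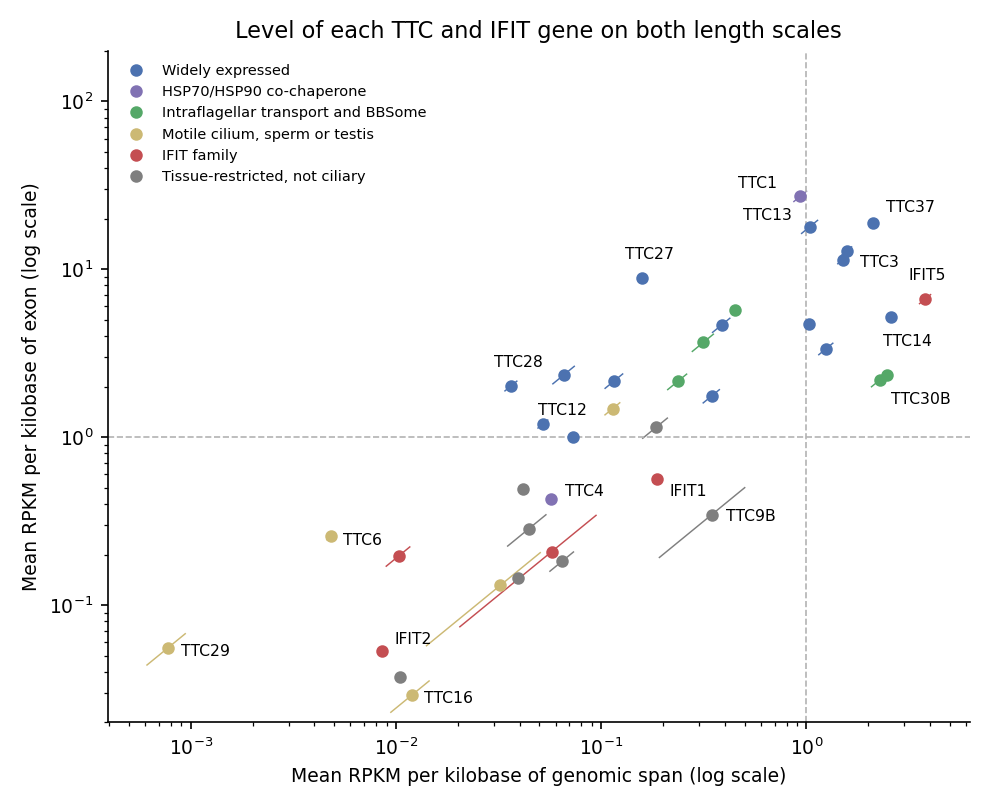
Mean RPKM per kilobase of genomic span (horizontal, log scale) and per kilobase of exon (vertical, log scale) of the 39 genes, coloured by known role; short lines join replicates 1 and 2 where both have reads, and dashed lines mark 1 RPKM. TTC1, TTC27 and TTC28 lie above the exonic line and left of the span line, while IFIT5, TTC14 and the TTC30 pair lie right of both.

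No TTC or IFIT gene was called as different between the libraries. Spearman's rho between the replicates was 0.947 across the 39 genes. The reads of the 2 libraries were compared gene by gene with an exact binomial test, adjusted by the method of Benjamini and Hochberg over all 332 genes. At an adjusted p under 0.05, 0 of the 39 genes passed, against 4.52% of the table. Against 16.6% of the table, 3 of the 39 genes (7.69%) had an unadjusted p under 0.05. These were TTC13 (adjusted p = 0.124, exact binomial test, log2 ratio of replicate 1 to replicate 2 -0.26), TTC3 (adjusted p = 0.139, log2 ratio -0.15) and TTC17 (adjusted p = 0.201, log2 ratio -0.28). With library totals rescaled so that the median gene had equal levels, TTC3 passed (adjusted p = 0.0417, exact binomial test, log2 ratio -0.19). Among the genes with at least 100 reads in each library, the largest log2 ratio was 0.28 in size. The 6 genes with a log2 ratio above 1 in size, TTC9B, TTC21A, TTC22, TTC36, IFIT1B and IFIT2, had at most 8 reads in a library. The share of such genes over the whole table was not counted, so nothing is read from their number.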

How the data were processed

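Per the labels' protocols, Trizol RNA went into stranded total RNA libraries. The submitters' processing notes name the build GRCh38 and the tools STAR 2.6.0b, Bowtie2 2.4.2 and Trim Galore 0.6.4. The counter, the annotation release and the handling of strand, introns, overlapping genes and multiply matching reads are not stated in the sources used here. The authors deposited whole-number read counts for 2 replicates and a mean RPKM per gene. This deposited RPKM is the mean over replicates of reads per kilobase of genomic span, scaled to a library total. Least squares recovered the totals (relative misfit below 1e-09 for every gene), from which the RPKM of each replicate followed; what the totals count is not stated either.

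Exonic lengths, overlaps and 50-base windows came from GENCODE 29 on GRCh38, where all 39 genes were found by identifier and name, 18 with the same start and end. Promoters came from RefSeq. The members, role lists and thresholds were chosen with earlier results of these data known. Values per library are given for the 10 genes with the highest RPKM, all IFIT, ciliary and co-chaperone genes and all called genes; others were chosen after their values were seen. With 1 group no model of groups could be fitted. The two-sided exact binomial test used library totals as exposure and log2 ratios with 0.5 reads added, and was tested on simulated data. The simulated counts held counting error only, so they cannot show how the test behaves where replicates spread more. With 2 replicates an exact permutation test cannot go below 0.5, so the order of genes has no p. Alternatives were other thresholds, a pseudocount of 0.1 RPKM, exonic length, other exposures, low-count filters and each replicate left out. Calculations used Python 3.11.15, SciPy 1.17.1 and pandas 2.3.3.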

Additional observations from a re-analysis of the deposited data

How the results depend on the processing

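Of 59 recalculated values, 36 stayed within 1.5 times of a count or within the replicate spread of a level, 22 moved and 1 reversed. Medians and ratios without a replicate are not among these, since with 2 replicates their shift can hardly exceed the spread. Some of the 36 could not differ, since a list with 0 genes at 1 RPKM also has 0 at 5 RPKM. Leaving out genes that share at least 50% of their exon bases, which removes TTC4, was chosen after the data were seen. It says nothing of stability, since TTC4 was under 1 RPKM and neither detected nor near zero. The counts of genes at 1 RPKM, detected or near zero thus could not change. With exonic length, shorter than the span for most genes, 23 instead of 10 genes reached 1 RPKM: 1 co-chaperone, 1 IFIT gene, 5 of intraflagellar transport and the BBSome, 1 of the motile cilium, sperm or testis, 1 tissue-restricted and 14 widely expressed. The median of log2(RPKM + 1) was 1.46 then, against 0.21. The ratio TTC7A/TTC7B reversed to 1.20, and others moved to 62.9 for TTC21B/TTC21A, 1.12 for TTC9/TTC9B, 0.0847 for IFIT1/IFIT5, 0.00859 for IFIT2/IFIT5 and 0.0299 for IFIT3/IFIT5, against 20.0, 0.175, 0.0491, 0.00241 and 0.00275 per kilobase of span. A threshold of 5 RPKM left 0 genes, and thus 0 IFIT, 0 intraflagellar transport and BBSome and 0 widely expressed genes; one of 0.5 RPKM added 1 co-chaperone, TTC1. Requiring 0 reads in each library left 0 genes near zero instead of 6. The median was -1.95 with a pseudocount of 0.1 RPKM and 0.40 with only genes of at least 10 reads over both libraries, which drops low genes. With exposures rescaled to a median ratio of 1, 1 gene, TTC3, passed the binomial test (adjusted p = 0.0417). Leaving out a replicate gave medians of 0.207 to 0.213, ratios of TTC21B to TTC21A of 9.16 to 30.9 and of TTC9 to TTC9B of 0.0700 to 0.280, of TTC9C to TTC9 of 18.8 to 29.8 and of IFIT2 to IFIT5 of 0 to 0.00483, and 0 to 1 co-chaperones at 1 RPKM, 1 without replicate 2. It gave 27 to 28 detected genes and 7 to 9 near zero, 9 without replicate 1. Pairs with TTC39C or TTC23L were not run, since neither is in the table. Depth limits the low genes: 12 of 39 had under 10 reads in at least 1 library. No paired analysis was possible because the samples form 1 group only.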

Other observations

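Genes that carry a TTC name in the older symbol column but another protein name fell outside the name rule, and their values were as follows. DNAJC7 (older symbol TTC2), a J-domain protein that binds HSP70 and HSP90, had 757 and 517 reads in replicates 1 and 2, or 11.8 and 12.4 RPKM per kilobase of exon. EMC2 (TTC35), a subunit of the membrane protein insertase of the endoplasmic reticulum, had 114 and 106 reads, or 4.42 and 6.31 RPKM per kilobase of exon. CFAP70 (TTC18), a protein of the axoneme, had 17 and 9 reads, or 0.335 and 0.273 RPKM per kilobase of exon. ODAD4 (TTC25), which docks dynein arms in motile cilia, had 4 and 9 reads, or 0.234 and 0.810 RPKM per kilobase of exon. The first pair was thus higher in both libraries than the pair of motile cilium genes.

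Of the TPR genes of the cilium that carry neither name, IFT88, a core subunit of intraflagellar transport, had 69 and 38 reads, or 1.65 and 1.40 RPKM per kilobase of exon. BBS4, a BBSome subunit, had 102 and 93 reads, or 3.60 and 5.04 RPKM per kilobase of exon.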
